A study of Mus musculus with 45 samples.

Results

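Livers of mice killed 9 h after an oral dose of vehicle were compared with livers of untreated mice killed at 0 h, immediately before the other groups were dosed. The arrays were taken by their labels, 5 vehicle 9 h arrays and 5 untreated 0 h arrays. They are 10 of the 45 arrays of a study of APAP (acetaminophen) in male C57Bl/6J mice. All 18180 genes measured entered the comparison. This comparison and the gene lists below were chosen with earlier results of these data known, so the list counts are descriptions. Both groups were fasted for 16 h. The vehicle 9 h mice then received 1% (w/v) hydroxyethylcellulose, a thickener that carried no drug, by gavage, and the untreated 0 h mice received nothing. Food was given back to the dosed mice after the fast, but the time of day and the age of these mice are not given in the sources used here. The 9 h of time, the time of day, the gavage and the return of food therefore differ between the groups together, and their parts cannot be told apart. Each array held liver RNA of 1 mouse, and fewer cells of a type and less RNA per cell cannot be told apart in such bulk samples.

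The liver stores and makes fuel according to food and time of day. In the fasted state low insulin leaves FOXO transcription factors in the nucleus, fatty acids activate PPAR-alpha, and the hepatocyte releases glucose and ketone bodies. After a meal insulin and sterol-regulated SREBP factors raise the enzymes that make fatty acids and cholesterol, and the secretory pathway is loaded with new protein. The circadian clock, in which Arntl and Clock drive the Per and Cry genes that later repress them, runs in every hepatocyte and is set by light, feeding and body temperature.

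Expression was read on Affymetrix Mouse Genome 430 2.0 arrays as log2 RMA values, on which a difference of 1 is a 2-fold change. Over all genes, arrays of the vehicle 9 h group correlated with each other at 0.9919 to 0.9976, those of the untreated 0 h group at 0.9933 to 0.9974, and arrays of different groups at 0.9838 to 0.9909. Genes are called higher or lower where limma gave an adjusted p under 0.05 and the change was at least 1.5-fold, and "rose" and "fell" are used only of called genes. At 9 h after vehicle 704 of 18180 genes were called against untreated 0 h mice, or 3.87%, with 369 higher (2.03%) and 335 lower (1.84%). The counts of each list below are to be set beside these shares. An unadjusted p under 0.05 in limma was found for 6058 of the 18180 genes, to be set beside list counts at that threshold. The 2 groups of arrays did not overlap for 3277 genes (18.0%), among them 654 of the 704 called. The median log2 fold change of all genes was -0.020. The hepatocyte marker Alb, the main plasma protein, was near the top of the scale in both groups. It had 14.96 to 15.03 in vehicle 9 h mice and 14.98 to 15.00 in untreated 0 h mice. Of 19 hepatocyte markers 1 was called. The highest log2 value on each of the 10 arrays lay between 14.96 and 15.03, and for genes close to that ceiling, such as Alb, Cyp4a14, Cyp2e1, Mgst1 and Fbp1, similar values in both groups do not show that the mRNA was unchanged. The marker called was Onecut1, a hepatocyte transcription factor, with a log2 fold change of 1.19.

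One array of each group stood apart in genes that mark other organs. On vehicle 9 h array 5 the adrenal gene Star, which carries cholesterol into mitochondria for steroid synthesis, had a log2 value of 11.77, against 6.33 to 6.62 on the other 4 arrays of its group. On untreated 0 h array 2 it had 10.59, against 6.29 to 6.68 on the others. Of 14 adrenal genes, chosen after the values were seen, 12 lay at least 2-fold above the mean of the other 4 arrays on vehicle 9 h array 5 and 10 on untreated 0 h array 2, including the steroid enzymes Cyp11a1, Cyp11b1 and Cyp21a1 and the chromaffin cell proteins Chga and Chgb. Their summed linear level was 27984 on vehicle 9 h array 5, with a group median of 1886, and 21523 on untreated 0 h array 2, with a group median of 2044. Of 8 fat genes, 7 were at least 2-fold above the other arrays on vehicle 9 h array 5, with Ucp1, the uncoupling protein of brown fat, at 11.08 against 6.38 to 6.71, and 2 on untreated 0 h array 2. None of the 22 genes was called in limma, and none had an unadjusted p under 0.05. With 1 high array in a group the SE is wide (1.07 for Star), so the test could hardly call such genes. It does not show that the comparison was unaffected. Without both arrays 728 genes were called, 416 higher and 312 lower, of which 639 were called in the same direction with them. Both arrays were kept in the values below. Without them 18 of the genes in the lists or named by rule lost their call and 14 gained one. Among those described below, Clock (-0.56), Hspe1 (0.52), Fkbp5 (-0.58), Ppargc1a (-0.57) and Slc16a10 (-0.48) then changed by less than 1.5-fold. Jun (log2 fold change 0.67, adjusted p = 0.0661 in limma), Klf10 (-0.61, 0.0813), Ppp1r3g (-0.70, 0.0551) and Orm3 (-0.41, 0.0777) did not pass without them, while Tsc22d3 (0.80, 0.00106) and Rdh11 (0.62, 0.00251) were called higher. Cidec, Lcn2, Ifit1, Marco and Col3a1 are given without both arrays where they are described.

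**Figure D1:**
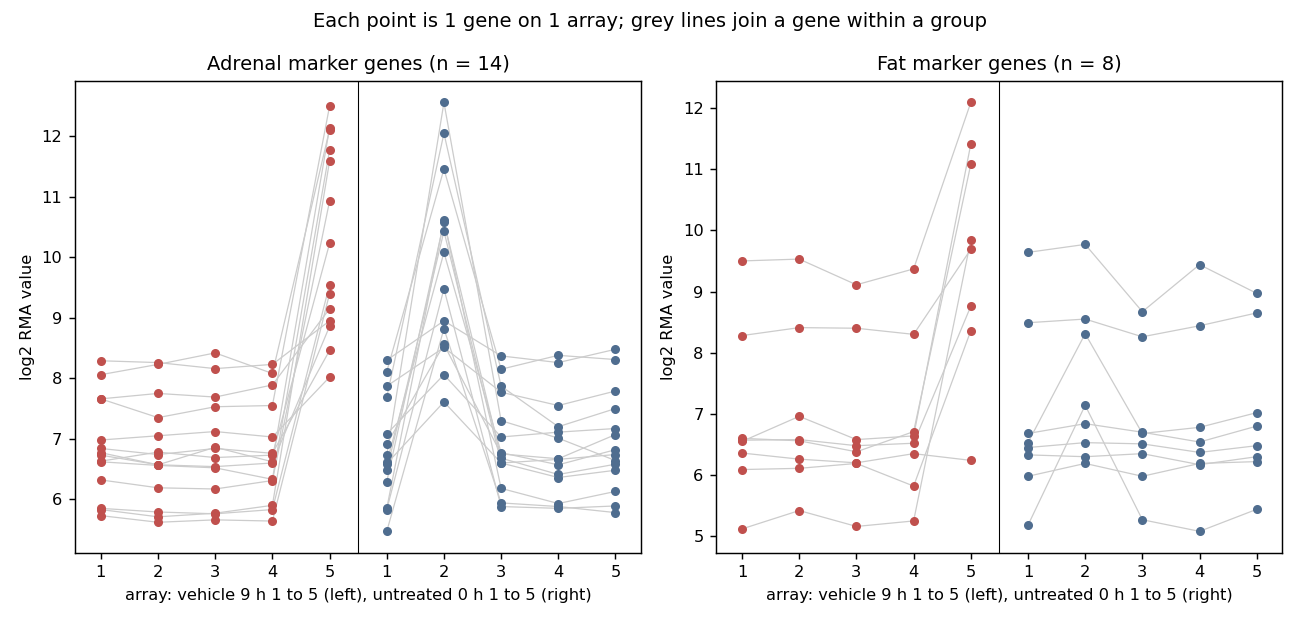
Log2 RMA values (vertical axis) of 14 adrenal genes (left) and 8 fat genes (right) on each array, with the 5 vehicle 9 h arrays left of the 5 untreated 0 h arrays in each panel. Each point is 1 gene on 1 array. Adrenal genes were high on vehicle 9 h array 5 and untreated 0 h array 2, and fat genes mainly on vehicle 9 h array 5.

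Genes of the clock moved in both directions. Of 20 clock output genes measured, 7 were higher and 5 lower in vehicle 9 h than in untreated 0 h livers, with a median log2 fold change of 0.39. Of 19 core clock genes, 4 were higher and 3 lower, with a median of -0.01. Of all genes 2.03% were higher and 1.84% lower. Dbp, a transcription factor driven directly by the clock, had log2 values of 11.15, 11.32, 11.12, 11.24 and 11.28 in vehicle 9 h mice, against 8.56, 8.48, 9.02, 7.79 and 8.99 in untreated 0 h mice. The groups were far apart, and the vehicle 9 h mice were the more alike. Its log2 fold change was 2.65 (SE 0.184, adjusted p = 9.42e-07), a 6.29-fold increase. Per2, a repressor at the heart of the clock, had 9.14, 8.94, 9.23, 8.75 and 8.77 in vehicle 9 h mice, against 6.89, 6.71, 6.92, 6.89 and 7.01 in untreated 0 h mice. All 5 vehicle 9 h mice stood above all untreated 0 h mice, and the log2 fold change was 2.08 (SE 0.094, adjusted p = 7.05e-08).

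Arntl, the partner of Clock that starts the cycle, went the other way. It had log2 values of 8.24, 7.85, 7.68, 7.87 and 7.77 in vehicle 9 h mice, against 9.60, 9.94, 9.57, 9.92 and 9.43 in untreated 0 h mice. The highest vehicle 9 h mouse was below the lowest untreated mouse, and the log2 fold change was -1.81 (SE 0.118, adjusted p = 5.92e-07). Its partners Npas2 (-0.81) and Clock (-0.60) fell as well, and so did Nfil3, the repressor that competes with Dbp at its sites, with 7.90, 7.94, 8.22, 8.66 and 7.58 in vehicle 9 h mice, against 9.82, 10.45, 10.04, 9.93 and 9.74 in untreated 0 h mice (log2 fold change -1.94). Bhlhe40, a repressor of Arntl and Clock activity, rose by 1.66 on the log2 scale, Ciart, another such repressor, by 0.99, and Per1 by 0.59. Among outputs, Noct, a phosphatase of nicotinamide cofactors, rose by 2.87, with 10.82 to 11.60 in vehicle 9 h mice, against 7.72 to 8.69 in untreated 0 h mice, and Usp2, a clock-controlled ubiquitin protease, rose by 1.34. Some clock genes passed the p threshold without reaching 1.5-fold, such as Nr1d2 (log2 fold change 0.52, adjusted p = 0.000313) and Per3 (0.47, 0.000681). Others did not pass it, among them Nr1d1 (-0.34, 0.104) and Cry1 (-0.55, 0.0577). Csnk1d, the kinase that marks Per proteins for decay, was the brightest core clock gene not called, with 10.32 to 10.46 in vehicle 9 h mice and 10.58 to 10.76 in untreated 0 h mice.

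The E-box CACGTG is the sequence that Arntl and Clock are known to bind. In the promoter windows of RefSeq (300 bases, from 250 before to 50 after the start of the transcript, GRCm38.p6), it was found in 5 of the 16 called clock genes that have a window, in 3 of the 16 clock genes not called, and in 8.09% of all 27025 genes with a window, on either strand since it reads the same on both. The D-box TTATGTAA, to which Dbp and Nfil3 bind, was in 1 of the 16 called and 1 of the 16 not called genes, against 1.11% of all genes, and its form TTACGTAA in none of either. Coq10b, a coenzyme Q-binding protein with a log2 fold change of 0.62, held both CACGTG and TTATGTAA. The windows of Ciart (chr3:95882179-95882478, minus strand) and Per1 (chr11:69098699-69098998, plus strand) are shown as the core clock genes that rose and hold the E-box, which is in capitals. Ciart has 3 matches, between 116 and 39 bases before the start, and Per1 has 1. A match is only a description of these letters.
Ciart: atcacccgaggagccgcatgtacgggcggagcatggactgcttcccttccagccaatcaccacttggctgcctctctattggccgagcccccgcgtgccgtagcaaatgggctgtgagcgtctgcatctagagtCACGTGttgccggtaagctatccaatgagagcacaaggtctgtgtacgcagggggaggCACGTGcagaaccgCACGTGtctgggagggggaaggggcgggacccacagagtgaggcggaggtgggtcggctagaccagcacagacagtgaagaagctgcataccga
Per1: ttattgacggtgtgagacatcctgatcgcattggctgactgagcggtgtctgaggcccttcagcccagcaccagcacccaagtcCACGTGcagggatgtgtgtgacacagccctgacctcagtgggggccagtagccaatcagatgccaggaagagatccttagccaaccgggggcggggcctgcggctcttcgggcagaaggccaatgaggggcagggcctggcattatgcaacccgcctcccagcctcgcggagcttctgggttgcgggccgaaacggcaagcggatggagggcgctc

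**Figure D2:**
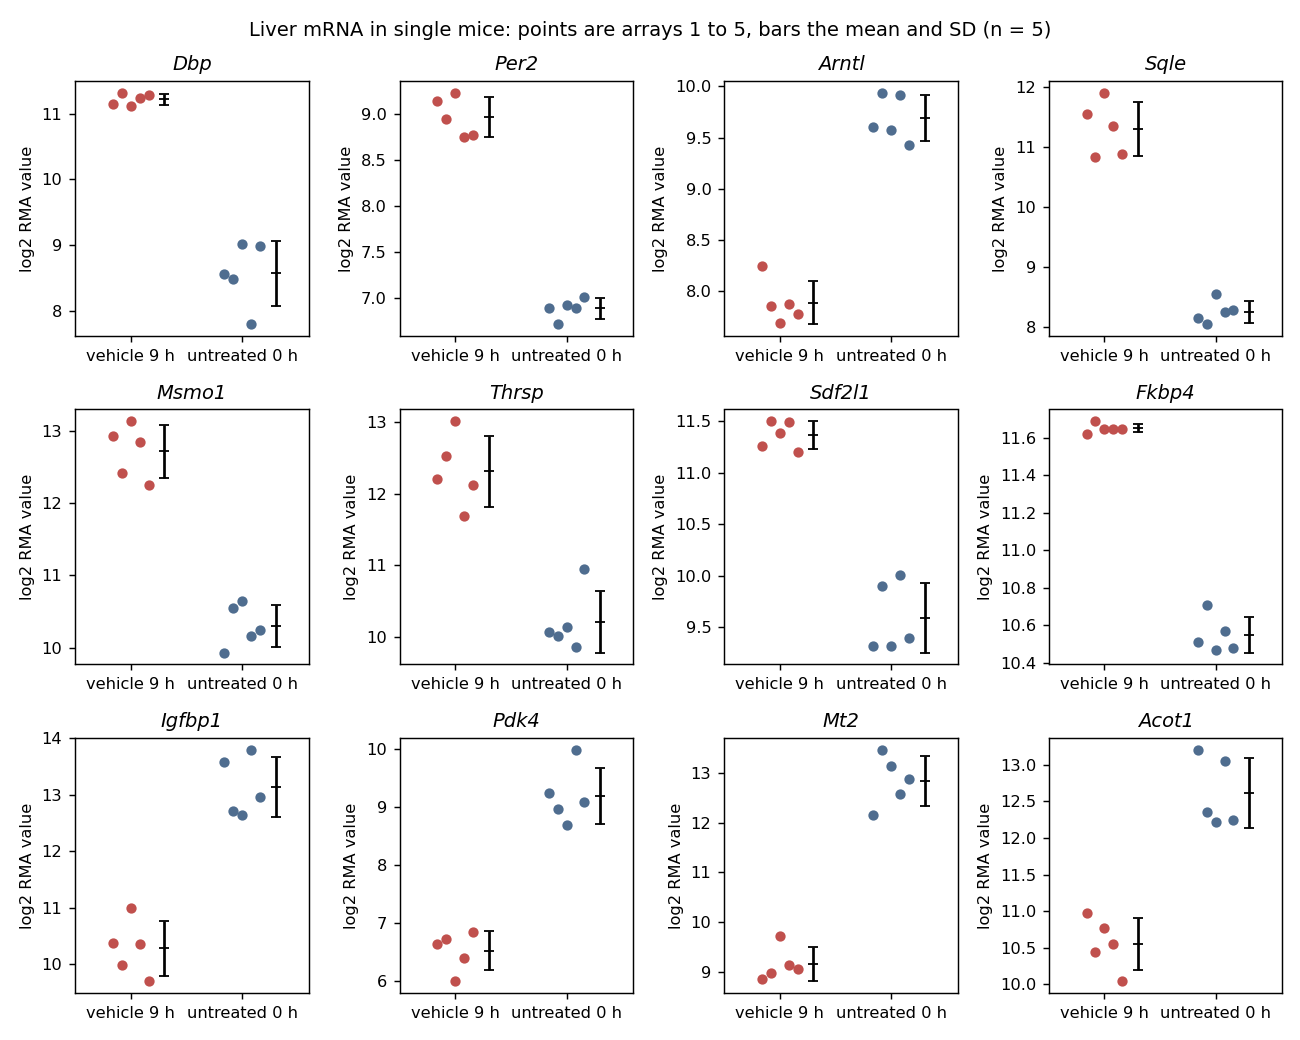
Log2 RMA values (vertical axes) of 12 genes in each mouse, with vehicle 9 h left of untreated 0 h. Points are single arrays and bars the mean and SD of 5 mice. In all 12 panels the 2 groups do not overlap. The spread among vehicle 9 h mice is smaller than among untreated 0 h mice for some genes, such as Dbp and Fkbp4. It is larger for others, such as Sqle and Per2.

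A list of RNA-binding proteins and chaperones that follow body temperature had 7 of 16 genes higher and 1 lower, with a median log2 fold change of 0.49. Among all genes 2.03% were higher and 1.84% lower. Rbm3, a cold-inducible RNA-binding protein, had log2 values of 9.24, 9.20, 8.85, 9.16 and 8.79 in vehicle 9 h mice, against 6.81, 7.82, 7.70, 6.80 and 7.56 in untreated 0 h mice. It rose by 1.71 on the log2 scale (SE 0.197, adjusted p = 4.95e-05). Cirbp, the other main cold-inducible protein of the list, fell, with 8.04, 8.28, 8.31, 7.86 and 8.13 in vehicle 9 h mice, against 9.51, 8.81, 9.30, 9.44 and 9.05 in untreated 0 h mice (log2 fold change -1.10). The pair moved in opposite directions, each without overlap between the groups. The co-chaperone Fkbp4, which serves Hsp90 and steroid receptors, had 11.62, 11.69, 11.65, 11.65 and 11.65 in vehicle 9 h mice, against 10.51, 10.71, 10.47, 10.57 and 10.48 in untreated 0 h mice, a log2 fold change of 1.10 (SE 0.051). Stip1 (0.86), Hsph1 (0.79), Cacybp (0.78), Chordc1 (0.77) and Hspe1 (0.59), all chaperones or their helpers, rose too. Hspa1a, the inducible Hsp70, was not called, at 5.03 to 6.75 in vehicle 9 h mice and 5.10 to 5.98 in untreated 0 h mice, and Dnaja1, the brightest member not called, had a log2 fold change of 0.40. The letters GAANNTTC, 2 units of the element that heat shock factors bind, were in the windows of 4 of the 7 called genes that have one, in 3 of 6 not called, and in 9.04% of all genes, with both strands searched. Fkbp4 (chr6:128438607-128438906, minus strand) and Chordc1 (chr9:18292017-18292316, plus strand) are shown, with the match in capitals, as called chaperone genes that hold it. Fkbp4 has 1 match and Chordc1 has 2, which lie between 4 bases before and 14 bases after its start.
Fkbp4: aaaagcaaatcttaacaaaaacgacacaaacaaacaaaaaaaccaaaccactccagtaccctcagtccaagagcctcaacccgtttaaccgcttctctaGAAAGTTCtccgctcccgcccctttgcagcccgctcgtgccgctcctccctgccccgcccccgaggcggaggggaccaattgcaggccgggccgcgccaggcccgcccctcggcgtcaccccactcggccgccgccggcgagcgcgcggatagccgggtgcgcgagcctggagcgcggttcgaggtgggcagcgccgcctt
Chordc1: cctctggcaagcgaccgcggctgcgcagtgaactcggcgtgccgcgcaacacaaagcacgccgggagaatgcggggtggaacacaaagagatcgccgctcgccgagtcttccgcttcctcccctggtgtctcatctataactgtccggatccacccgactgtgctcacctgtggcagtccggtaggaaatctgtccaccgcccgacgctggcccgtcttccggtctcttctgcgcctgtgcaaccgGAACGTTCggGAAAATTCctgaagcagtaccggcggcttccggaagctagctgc

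Genes of cholesterol synthesis had the largest share of called increases among the 37 lists. Of 23 genes of sterol synthesis and uptake, 16 were higher and none lower in vehicle 9 h livers, against 2.03% of all genes higher, and 1 was lower at an unadjusted p under 0.05 in limma. The median log2 fold change was 0.97. Sqle, squalene epoxidase, had log2 values of 11.55, 10.84, 11.91, 11.35 and 10.89 in vehicle 9 h mice, against 8.15, 8.05, 8.55, 8.25 and 8.29 in untreated 0 h mice. Every vehicle 9 h mouse stood more than 2 log2 units above the highest untreated mouse, and the gene rose 8.29-fold (log2 fold change 3.05, SE 0.179, adjusted p = 3.63e-07). Msmo1, a methylsterol oxidase of the later steps, had 12.92, 12.42, 13.13, 12.84 and 12.25 in vehicle 9 h mice, against 9.93, 10.55, 10.64, 10.16 and 10.25 in untreated 0 h mice (log2 fold change 2.41, SE 0.171), again without overlap.

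Along the pathway enzymes on both sides of squalene rose. Hmgcs1 (1.26), Mvk (0.88), Pmvk (0.69) and Mvd (2.17) of the mevalonate steps, Fdft1 (1.66), which makes squalene, and Lss (1.67, counted with the lipogenesis list), which closes the sterol ring, were all called higher. Of the later steps, Cyp51 (2.12), Nsdhl (1.47), Sc5d (0.90) and Dhcr7 (0.97) rose, and Stard4, a sterol carrier, rose by 1.46. Of the 7 not called, Ebp, the brightest, was level, at 12.51 to 12.77 in vehicle 9 h mice and 12.57 to 12.75 in untreated 0 h mice. Tm7sf2, a sterol reductase, had a log2 fold change of -0.58, and Srebf2, the factor that drives the pathway, 0.35.

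Genes of fatty acid synthesis rose in part. Of 32 lipogenesis genes 10 were higher and 3 lower, against 2.03% and 1.84% of all genes, with a median log2 fold change of 0.24. Thrsp, a lipogenic nuclear protein, had log2 values of 12.20, 12.53, 13.01, 11.69 and 12.12 in vehicle 9 h mice, against 10.08, 10.02, 10.14, 9.87 and 10.95 in untreated 0 h mice, a log2 fold change of 2.10 (SE 0.238). Untreated mouse 5 was the highest of its group and still below every vehicle 9 h mouse. Mid1ip1 (1.80), an activator of acetyl-CoA carboxylase, Srebf1 (1.61), Elovl6 (1.39), Fasn (1.24), Acly (1.03), Pklr (0.75) and Tkfc (0.72) rose. Insig2, which holds SREBP factors in the endoplasmic reticulum and is known to fall with insulin, fell by 1.67 on the log2 scale, Lpin1, a phosphatidate phosphatase induced by fasting, by 1.09, and Acacb, the carboxylase that curbs fatty acid oxidation, by 0.88. Scd1, a desaturase, was not called, with 11.42 to 12.31 in vehicle 9 h mice and 11.70 to 12.94 in untreated 0 h mice. Angptl8, a secreted inhibitor of lipoprotein lipase that feeding induces, rose by 2.82, with 10.82 to 12.46 in vehicle 9 h mice and 8.77 to 9.11 in untreated 0 h mice.

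Of 17 glycogen genes 4 were higher and 1 lower, against 2.03% and 1.84% of all genes. Among the higher were Ppp1r3b, which brings a phosphatase to glycogen (log2 fold change 1.04), and the branching enzyme Gbe1 (0.97). Ppp1r3g, a related subunit, fell by 0.62, and without the 2 arrays high in adrenal genes no glycogen gene was called lower. Slc2a2, the glucose transporter of hepatocytes, and Gys2, glycogen synthase, were not called, with log2 fold changes of 0.29 and -0.34.

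**Figure D3:**
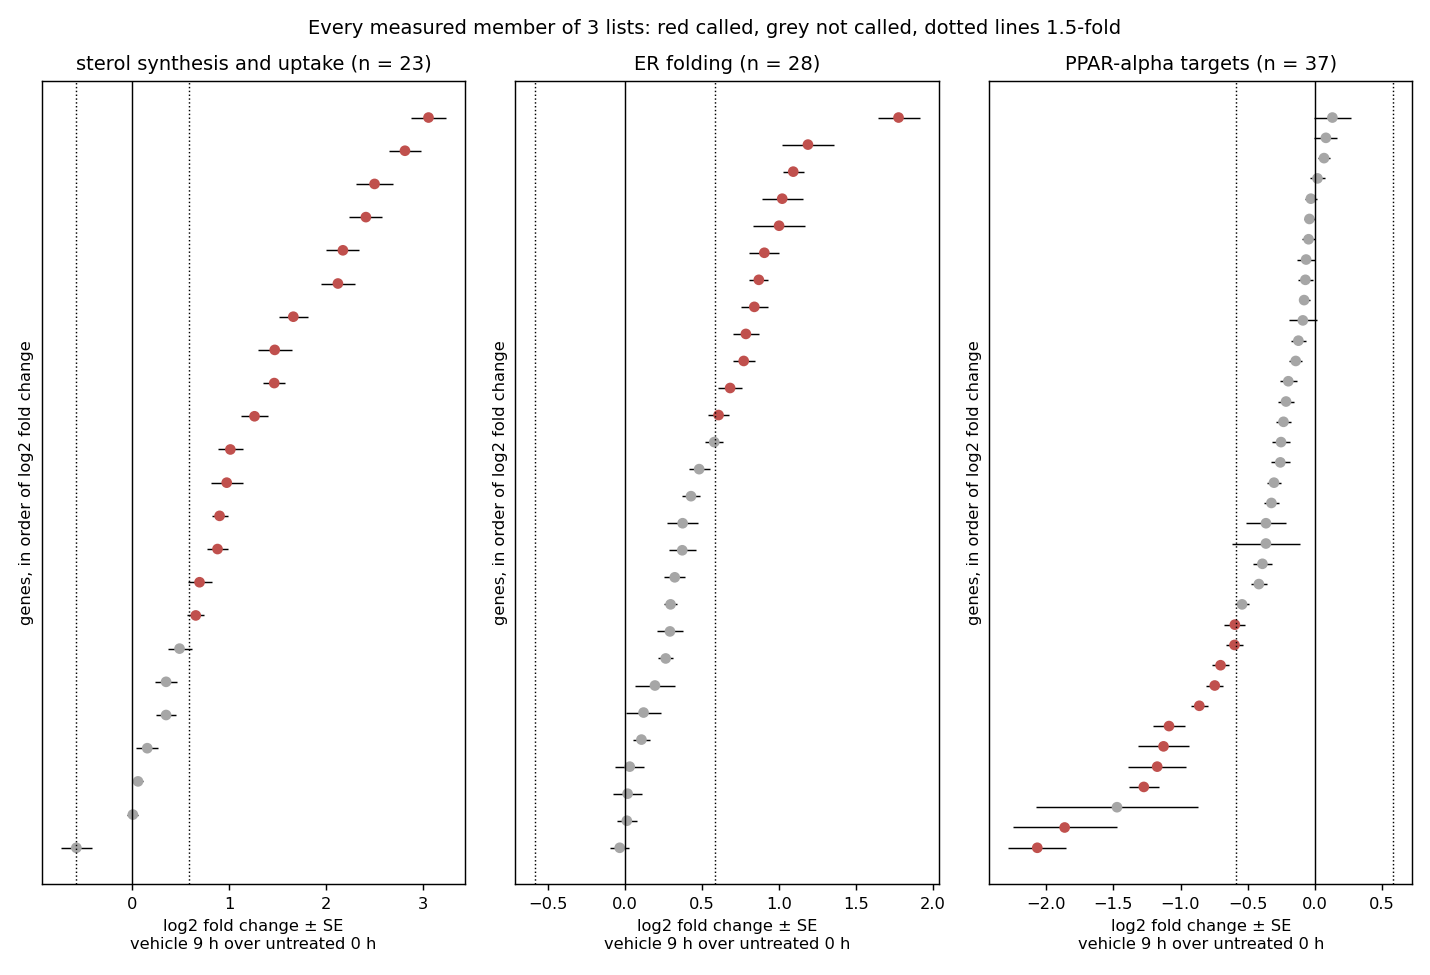
Log2 fold changes of vehicle 9 h over untreated 0 h (horizontal axes, with SE) for every measured gene of 3 lists, each ranked by its change. Red points were called and grey points were not, and dotted lines mark 1.5-fold in either direction. Sterol genes lie to the right with 16 of 23 called, ER folding genes to the right with 12 of 28, and PPAR-alpha targets to the left with 11 of 37.

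Several genes of the fasted state fell. Of 22 genes under FOXO or of insulin signalling, 7 were lower and 2 higher, with a median log2 fold change of -0.27, and 1.84% of all genes were lower. Igfbp1, a secreted binder of insulin-like growth factors that insulin represses, had log2 values of 10.37, 9.99, 11, 10.36 and 9.70 in vehicle 9 h mice, against 13.58, 12.71, 12.64, 13.80 and 12.96 in untreated 0 h mice. It was 7.23-fold lower, with no overlap (log2 fold change -2.85, SE 0.259, adjusted p = 7.42e-06). Pdk4, the kinase that shuts pyruvate dehydrogenase during fasting, had 6.64, 6.73, 6.00, 6.40 and 6.85 in vehicle 9 h mice, against 9.24, 8.96, 8.69, 9.99 and 9.09 in untreated 0 h mice (log2 fold change -2.67, SE 0.216). Ccng2, a cyclin of resting cells, fell by 1.85, Angptl4, another inhibitor of lipoprotein lipase, by 1.40, Trib3, a pseudokinase that binds Akt, by 1.19 and Irs2, the insulin receptor substrate of the fasted liver, by 1.12. Pik3r1, the regulatory subunit of PI3-kinase, rose by 0.83. Fgf1, the brightest member not called, had a log2 fold change of -0.05. The letters GTAAACA, which FOXO factors bind, were in none of the 7 windows of called genes, in 1 of 9 not called, and in 4.05% of all genes, with both strands searched.

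Of 20 gluconeogenesis genes 4 were lower and 1 higher, against 1.84% and 2.03% of all genes, with a median of -0.36. G6pc, glucose-6-phosphatase, had log2 values of 12.43, 12.76, 11.95, 11.89 and 10.83 in vehicle 9 h mice, against 13.49, 13.36, 13.49, 13.55 and 13.38 in untreated 0 h mice, a log2 fold change of -1.48 (SE 0.268, adjusted p = 0.00138). Vehicle 9 h mouse 5, the array with adrenal and fat genes, was the lowest of its group here. Got1, an aminotransferase, fell by 1.18, Pck1, the other control enzyme of the pathway, by 0.77 and Ppargc1a, its coactivator, by 0.70. Pfkfb3, which makes the signal for glycolysis, rose by 0.88, and Fbp1, fructose bisphosphatase, was near the ceiling, at 14.19 to 14.28 in vehicle 9 h mice and 14.24 to 14.28 in untreated 0 h mice. Without the 2 arrays high in adrenal genes, 3 of the list were lower.

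Of 37 PPAR-alpha targets of fatty acid oxidation and ketone body synthesis, 11 were lower, against 1.84% of all genes. None was higher (also none at an unadjusted p under 0.05 in limma), and 33 had a negative log2 fold change, with a median of -0.30. Acot1, a cytosolic acyl-CoA thioesterase, had log2 values of 10.97, 10.44, 10.77, 10.55 and 10.04 in vehicle 9 h mice, against 13.21, 12.36, 12.22, 13.06 and 12.25 in untreated 0 h mice (log2 fold change -2.07, SE 0.216). Fgf21, the fasting hormone of the liver, had 7.84, 8.27, 7, 7.49 and 7.52 in vehicle 9 h mice, against 10.92, 9.05, 8.61, 10.03 and 8.82 in untreated 0 h mice (log2 fold change -1.86, SE 0.388, adjusted p = 0.00355). In both genes untreated mice 1 and 4 were the highest. Slc22a5, the carnitine transporter, fell by 1.27, Acot2 by 1.17 and Cpt1a, which lets fatty acids into mitochondria, by 0.86. The lipid droplet gene Cidec was split in the same way, with 10.75 and 10.67 in untreated mice 1 and 4 and 8.06 to 8.88 in the other 3, against 6.84 to 9.38 in vehicle 9 h mice, of which mouse 5 was the highest. Its log2 fold change of -1.47 did not pass (adjusted p = 0.104), and it was -2.15 (adjusted p = 0.0161) without the 2 arrays high in adrenal genes. It also passed without vehicle 9 h mouse 5 alone (-1.86, adjusted p = 0.033) and in a model over all 45 arrays (adjusted p = 0.0154). Cyp4a14, a fatty acid hydroxylase and classic PPAR-alpha target, was near the ceiling of the arrays and not called, at 14.49 to 14.59 in vehicle 9 h mice and 14.50 to 14.60 in untreated 0 h mice.

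Of 30 autophagy and lysosome genes 6 were lower and none higher, with a median of -0.21, when 1.84% of all genes were lower. At an unadjusted p under 0.05 in limma 1 was higher. Depp1, a FOXO target of autophagy, had 9.63 to 11.25 in vehicle 9 h mice and 11.62 to 12.33 in untreated 0 h mice (log2 fold change -1.54). Map1lc3b, the LC3 protein of autophagosomes, had 10.90, 10.93, 10.92, 10.84 and 10.85 in vehicle 9 h mice, against 11.85, 11.95, 11.90, 11.96 and 11.90 in untreated 0 h mice, with a log2 fold change of -1.02 (SE 0.043). Wipi1 (-1.17), Bnip3l (-0.82), Gabarapl1 (-0.80) and Optn (-0.75) fell, and Lamp1, a lysosomal membrane protein, was not called (-0.06).

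The largest decrease of all genes was that of a metallothionein. Mt2, a metal-binding protein that zinc and glucocorticoids induce, had log2 values of 8.85, 8.98, 9.73, 9.13 and 9.06 in vehicle 9 h mice, against 12.16, 13.47, 13.13, 12.58 and 12.87 in untreated 0 h mice. It was 12.9-fold lower (log2 fold change -3.69, SE 0.221, adjusted p = 3.91e-07), and Mt1 was lower by 2.53 on the log2 scale, with 9.47 to 10.79 in vehicle 9 h mice and 12.07 to 12.86 in untreated 0 h mice. Vehicle 9 h mouse 3 was the highest of its group in both. In their list, with zinc transporters and glucocorticoid-induced genes, 8 of 24 were lower and 2 higher, and the median was -0.06. Among all genes 1.84% were lower and 2.03% higher. Cdkn1a, an inhibitor of the cell cycle that is also counted with the clock outputs, had 8.18, 8.05, 8.04, 7.82 and 8.08 in vehicle 9 h mice, against 10.65, 10.89, 10.41, 10.47 and 10.20 in untreated 0 h mice (log2 fold change -2.49, SE 0.112). Fkbp5, Zbtb16 and Mfsd2a, glucocorticoid-induced genes in many tissues, fell by 0.75, 1.34 and 1.35, and Slc39a10, a zinc importer, rose by 1.40. Other glucocorticoid-induced genes were not called, among them Tat, a tyrosine-degrading enzyme, with 13.61 to 13.86 in vehicle 9 h mice and 13.62 to 13.87 in untreated 0 h mice, and Tsc22d3, with a log2 fold change of 0.56.

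**Figure D4:**
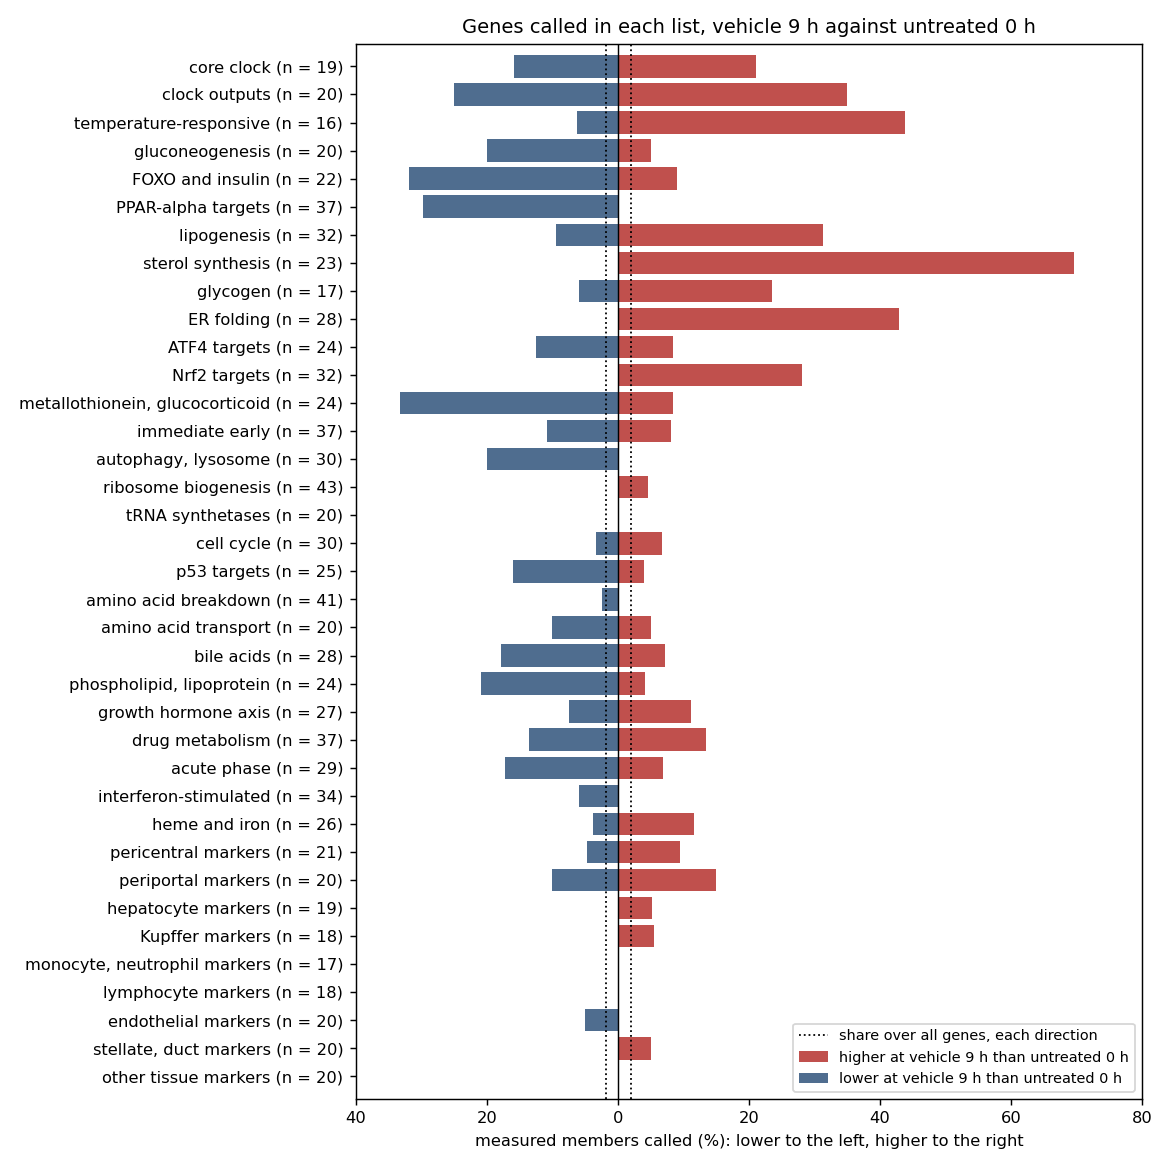
Percent of the measured genes of each of 37 lists that were called higher (to the right) or lower (to the left) in vehicle 9 h than in untreated 0 h livers, with dotted lines at the share over all genes. Sterol synthesis has the largest share higher, 16 of 23, and the metallothionein and glucocorticoid list the largest share lower, 8 of 24.

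Genes of protein folding in the endoplasmic reticulum (ER) rose in part. Of 28 measured, 12 were higher, against 2.03% of all genes. None was lower, also at an unadjusted p under 0.05 in limma, and 27 had a positive log2 fold change, with a median of 0.46. Sdf2l1, a partner of the chaperone Hspa5, had log2 values of 11.26, 11.50, 11.39, 11.49 and 11.20 in vehicle 9 h mice, against 9.32, 9.90, 9.32, 10.01 and 9.40 in untreated 0 h mice (log2 fold change 1.78, SE 0.136). Untreated mice 2 and 4 were the higher of their group and still more than 1 log2 unit below every vehicle 9 h mouse. Pdia6, a disulfide isomerase, had 13.00, 12.92, 12.88, 12.97 and 12.81 in vehicle 9 h mice, against 11.68, 12, 11.76, 11.93 and 11.74 in untreated 0 h mice (log2 fold change 1.09, SE 0.067). Derl3, of ER-associated degradation, rose by 1.19, Manf, a secreted ER stress protein, by 1.02, Creld2 by 1.00, Hyou1 by 0.91, Pdia3 by 0.87, Pdia4 by 0.84 and Hsp90b1, the ER form of Hsp90, by 0.79. Hspa5 itself, the main ER chaperone, had a log2 fold change of 0.38 and was not called, nor were Xbp1 (0.29), Herpud1 (0.02), Dnajb9 (0.37) and P4hb (0.30). P4hb was near the ceiling, at 14.23 to 14.33 in vehicle 9 h mice and 13.91 to 14.03 in untreated 0 h mice. It passed the p threshold (adjusted p = 0.000241 in limma) without reaching 1.5-fold.

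The ER stress element is known as CCAAT and CCACG set 9 bases apart. Both CCAAT and CCACG, on either strand and at any distance, were in 8 of the 9 called ER genes that have a window, in 12 of 15 not called, and in 13.3% of all genes. At exactly 9 bases, a form searched after the values were seen, they were in 5 of 9 called and 5 of 15 not called genes, and in 0.14% of all genes. The windows of Derl3 (chr10:75893148-75893447, plus strand), Pdia6 (chr12:17266339-17266638, plus strand), Creld2 (chr15:88819396-88819695, plus strand) and Hsp90b1 (chr10:86705395-86705694, minus strand) are shown as called genes with the spaced pair, in capitals. On the opposite strand CCAAT reads ATTGG and CCACG reads CGTGG, as in Derl3 and Creld2, and Hsp90b1 holds the pair in both orientations.
Derl3: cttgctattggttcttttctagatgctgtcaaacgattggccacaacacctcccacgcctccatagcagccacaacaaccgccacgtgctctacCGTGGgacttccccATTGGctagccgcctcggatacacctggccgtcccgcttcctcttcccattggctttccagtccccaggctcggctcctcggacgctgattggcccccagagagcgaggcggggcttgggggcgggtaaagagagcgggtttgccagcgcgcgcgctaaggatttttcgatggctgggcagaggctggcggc
Pdia6: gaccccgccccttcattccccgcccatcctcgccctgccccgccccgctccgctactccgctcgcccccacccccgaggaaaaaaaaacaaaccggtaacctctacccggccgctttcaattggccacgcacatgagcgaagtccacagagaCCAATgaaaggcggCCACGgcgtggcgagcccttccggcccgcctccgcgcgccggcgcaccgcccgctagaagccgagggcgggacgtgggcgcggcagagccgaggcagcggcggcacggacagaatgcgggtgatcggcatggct
Creld2: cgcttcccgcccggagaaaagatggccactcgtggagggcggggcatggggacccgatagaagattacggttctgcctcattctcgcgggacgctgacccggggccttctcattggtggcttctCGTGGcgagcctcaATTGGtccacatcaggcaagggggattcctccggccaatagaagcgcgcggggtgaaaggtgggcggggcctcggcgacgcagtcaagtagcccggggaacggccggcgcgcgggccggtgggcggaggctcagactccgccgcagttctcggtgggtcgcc
Hsp90b1: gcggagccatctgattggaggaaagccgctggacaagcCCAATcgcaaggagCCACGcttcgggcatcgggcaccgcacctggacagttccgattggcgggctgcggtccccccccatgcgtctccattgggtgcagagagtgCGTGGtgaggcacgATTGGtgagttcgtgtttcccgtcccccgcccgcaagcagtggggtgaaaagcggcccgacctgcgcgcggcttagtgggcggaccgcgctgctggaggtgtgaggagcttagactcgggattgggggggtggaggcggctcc

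Targets of the integrated stress response were called in both directions, and of all genes 2.03% were higher and 1.84% lower. Of 24 ATF4 and CHOP targets 2 were higher, Psph (log2 fold change 0.88) of serine synthesis and Asns (0.75), asparagine synthetase, and 3 were lower, Fgf21, Trib3 and Chac1 (-0.72), a glutathione-degrading enzyme. Nrf2 targets and glutathione enzymes had 9 of 32 higher and none lower, with a median of 0.26, and 2 lower at an unadjusted p under 0.05 in limma. Gstm3, a glutathione transferase, had 10.45 to 11.26 in vehicle 9 h mice, against 9.10 to 9.59 in untreated 0 h mice (log2 fold change 1.56). Gclc, the catalytic subunit of the rate-limiting enzyme of glutathione synthesis, had 12.67, 12.89, 12.70, 12.80 and 12.76 in vehicle 9 h mice, against 11.94, 11.84, 11.95, 11.84 and 11.71 in untreated 0 h mice (log2 fold change 0.90, SE 0.059). Gss, glutathione synthetase, rose by 0.84, Ugdh, which makes UDP-glucuronate, by 0.85 and Nqo1, a quinone reductase, by 0.69. Hmox1 (-0.16), heme oxygenase, and Slc7a11 (0.01), the cystine importer, were not called, and Mgst1 was near the ceiling, at 14.40 to 14.57 in vehicle 9 h mice and 14.43 to 14.51 in untreated 0 h mice.

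Immediate early genes had 3 of 37 higher and 4 lower, against 2.03% and 1.84% of all genes, with a median of -0.03. Gadd45g (-1.27), Socs3 (-1.16), which curbs cytokine signals, Junb (-0.75) and Klf10 (-0.71) fell, and Dusp6 (0.97), Gadd45a (0.90) and Jun (0.71) rose. Egr1 was uneven between mice, with 9.54, 9.40, 11.83, 10.83 and 12.40 in vehicle 9 h mice and 9.86, 9.78, 8.65, 10.13 and 8.74 in untreated 0 h mice, and its log2 fold change of 1.36 was not called (SE 0.541, adjusted p = 0.0927). Of p53 targets 4 of 25 were lower, Cdkn1a, Trp53inp1 (-0.76), Trp53inp2 (-0.74) and Ei24 (-0.71), and Gadd45a was higher. Of 30 cell cycle genes Mcm6, a replication helicase subunit, and Ccne2, cyclin E2, rose by 0.79 and 0.65, and Cdkn1a fell. Ccne2 did not reach 1.5-fold without vehicle 9 h mouse 2 (0.58).

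Genes of protein synthesis mostly had positive log2 fold changes below the minimum of 1.5-fold, and 3.87% of all genes were called. Of 43 ribosome biogenesis genes 39 had a positive log2 fold change, with a median of 0.23, and 2 were called, Dkc1 and Nop58, both 0.72 higher. Of 20 cytosolic tRNA synthetases 18 were positive, with a median of 0.27, and none was called. At an unadjusted p under 0.05 in limma 16 were higher and 1 lower, against 6058 of all 18180 genes in either direction. Aars, the brightest, had an adjusted p of 6.27e-05 and a log2 fold change of 0.50. Amino acid breakdown had 1 of 41 called, Got1, although 33 were negative, with a median of -0.15. Among 20 amino acid transporters Slc36a1, of lysosomes, rose by 0.98, and Slc7a2 and Slc16a10 fell by 0.73 and 0.59. Slc16a10 did not reach 1.5-fold without vehicle 9 h mouse 2 or 5 or untreated mouse 2 or 4, at -0.58 to -0.52.

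Bile acid genes had 2 of 28 higher and 5 lower, against 2.03% and 1.84% of all genes. Cyp8b1, the enzyme that sets the share of cholic acid, had 12.46 to 13.09 in vehicle 9 h mice, against 13.63 to 13.98 in untreated 0 h mice (log2 fold change -0.96), and Cyp39a1 (-0.90) and Abcb4 (-0.78), which exports phospholipid into bile, fell. Cyp7b1 (0.65) and Cyp2c70 (0.72), which makes muricholic acids, rose, and without the 2 arrays high in adrenal genes 4 of the list were higher and 4 lower. In phospholipid and lipoprotein genes 5 of 24 were lower, among them Lipc (-0.81), a lipase, and Lpcat3 (-0.80), which remodels phospholipids, and Angptl8 was higher. In the growth hormone list 3 of 27 were higher and 2 lower. Hsd3b5, a male-enriched steroid reductase, was the largest increase of all genes without overlap, with 11.59, 12.66, 11.96, 12.34 and 11.98 in vehicle 9 h mice, against 8.49, 9.48, 9.39, 7.59 and 8.88 in untreated 0 h mice (log2 fold change 3.34, SE 0.316, adjusted p = 1.02e-05). Elovl3, a fatty acid elongase that is also male-enriched and cycles with the clock, fell by 2.44, with 9.23 to 9.89 in vehicle 9 h mice, against 11.20 to 12.27 in untreated 0 h mice, and Igfals, the carrier of the growth factor Igf1 in blood, rose by 0.96.

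Drug-metabolizing genes had 5 of 37 higher and 5 lower, against 2.03% and 1.84% of all genes. Cyp2b10, the classic target of the receptor CAR, had 9.75, 8.20, 8.90, 8.61 and 8.54 in vehicle 9 h mice, against 9.87, 9.53, 10.31, 11.63 and 10.39 in untreated 0 h mice (log2 fold change -1.55, SE 0.357, adjusted p = 0.00676), with vehicle 9 h mouse 1 above untreated mouse 2. Abcb1a, a drug efflux pump, rose by 1.34 and Cyp2c55 by 1.03, and Sult1d1 and the electron donor Por fell by 0.89 and 0.71. Cyp2e1, a main APAP-activating enzyme, was near the ceiling and not called, at 14.47 to 14.56 in vehicle 9 h mice and 14.53 to 14.62 in untreated 0 h mice. Among 29 acute phase genes 5 were lower, with Saa1, serum amyloid A, at -1.41, Lcn2 at -1.19, Lbp at -0.94, Saa2 at -0.86 and Orm3 at -0.69, and 2 were higher. Without the 2 arrays high in adrenal genes 3 were lower. Lcn2 did not pass without the 2 arrays high in adrenal genes (log2 fold change -0.73, adjusted p = 0.0733), nor without vehicle 9 h mouse 4 or untreated mouse 2 or 4 alone (adjusted p = 0.0512 to 0.0596). Of 34 interferon-stimulated genes Rsad2 (-0.98) and Ifit1 (-0.74) were lower. Ifit1 did not pass without the 2 arrays high in adrenal genes (adjusted p = 0.0653). Nor did it pass without vehicle 9 h mouse 1, 2, 4 or 5 or untreated mouse 3 alone (adjusted p = 0.0529 to 0.0635). Without untreated mouse 2 it passed (adjusted p = 0.0371) but did not reach 1.5-fold (-0.55). In heme and iron genes Tfrc, the transferrin receptor, had 10.09, 10.04, 10.13, 10.15 and 9.97 in vehicle 9 h mice, against 8.91, 8.79, 8.62, 8.74 and 8.79 in untreated 0 h mice (log2 fold change 1.30, SE 0.058). Alad (0.86) and Alas1 (0.59), early enzymes of heme synthesis, rose, though Alas1 reached 0.51 to 0.58 without vehicle 9 h mouse 1 or 3 or untreated mouse 1, 3 or 5, and Id1, a target of the iron sensing BMP pathway, fell by 0.98.

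Several of the largest changes lay outside the lists. Fam47e rose by 2.50, with 10.97 to 11.31 in vehicle 9 h mice, against 8.21 to 8.95 in untreated 0 h mice, Serpina7, thyroxine-binding globulin, by 2.41 and Nat8f5 by 2.19. Clpx, the unfoldase of the mitochondrial ClpXP protease, had 11.40, 11.45, 11.36, 11.32 and 11.51 in vehicle 9 h mice, against 13.32, 13.36, 13.26, 13.51 and 13.28 in untreated 0 h mice, a log2 fold change of -1.94 with an SE of 0.058. Rnf125, a ubiquitin ligase, fell by 2.37 and Arl4a, a small GTPase, by 1.85.

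Of 112 markers of other cells 3 were called, or 2.68%, against 3.87% of all genes. None of 17 monocyte and neutrophil, 18 lymphocyte or 20 markers of neighbouring tissues was called. At an unadjusted p under 0.05 limma gave 6058 of all 18180 genes. Among them were 5 monocyte and neutrophil markers, 2 lymphocyte markers and 1 marker of neighbouring tissues. The summed linear level of the last list was highest on vehicle 9 h array 5, at 8922 against a group median of 5494, and ran from 4666 to 5567 in untreated 0 h mice. One of 18 Kupffer cell markers, Marco (0.66), and 1 of 20 stellate and duct markers, Col3a1 (0.68), were higher, and Lyve1, of endothelium, was lower (-0.60). Marco and Col3a1 were not called without the 2 arrays high in adrenal genes, where their log2 fold changes were 0.65 and 0.51. Col3a1 had 0.52 without vehicle 9 h mouse 5 alone, and Lyve1 had -0.58 to -0.53 without vehicle 9 h mouse 3 or 4 or untreated mouse 4 or 5. Marco was not called without vehicle 9 h mouse 1, 4 or 5 or untreated mouse 1, 2, 3 or 5, at 0.48 to 0.69. The summed linear level of the Kupffer list ran from 18254 to 24321 in vehicle 9 h mice and from 17948 to 22773 in untreated 0 h mice. Among zone markers, pericentral genes had 2 of 21 higher, Lect2 (1.01) and Slc13a3 (0.59), and 1 lower, Cyp2c37 (-0.83). Slc13a3 had 0.54 to 0.58 without vehicle 9 h mouse 1, 2 or 3 or untreated mouse 1, 4 or 5. Periportal genes had 3 of 20 higher, Cdh1 (0.97), Igfals and Aldh1b1 (0.86), and 2 lower, Hsd17b6 (-1.07) and Pck1.

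The other vehicle times place the 9 h livers in a course. Only 4 genes, 0.0220% of all, were called between 9 h and 6 h after vehicle, where 2219 had an unadjusted p under 0.05 in limma. The fetal protein gene Afp was higher at 9 h, by 0.87 on the log2 scale, and the interferon-stimulated genes Ifit1 (-1.20), Usp18 (-0.86) and Igtp (-0.59) were lower. Without vehicle 9 h mouse 1 or 2 or vehicle 6 h mouse 1, 2 genes were called. The call of Afp was kept in 2 of the 10 fits that left out 1 mouse and in 7 of all 20 alternatives, with log2 differences of 0.80 to 0.91 (adjusted p = 0.0665 to 0.117 in limma) without vehicle 9 h mouse 1, 2, 3 or 5 or vehicle 6 h mouse 1, 3, 4 or 5. Igtp, Usp18 and Ifit1 were called in 13, 16 and 17 of the 20. Between 9 h and 3 h after vehicle 254 genes, 1.40%, were called, 130 higher and 124 lower at 9 h. With vehicle 9 h array 5 and the 2 vehicle 3 h arrays high in fat genes (4 and 5) left out, 266 were called.

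Between 9 h and 24 h after vehicle 371 genes, 2.04%, were called, with 157 higher (0.864%) and 214 lower (1.18%) at 9 h. The 24 h mice were killed a whole day after dosing, at about the time of day of the 0 h mice. Dbp averaged 8.57 ± 0.496, 9.16 ± 0.872, 10.90 ± 0.410, 11.22 ± 0.083 and 8.62 ± 0.521 at 0, 3, 6, 9 and 24 h (SD, n = 5 each), and Arntl 9.69 ± 0.226, 9.39 ± 0.288, 8.08 ± 0.388, 7.88 ± 0.214 and 9.45 ± 0.235. The log2 difference of 9 h from 24 h was 2.60 for Dbp and -1.56 for Arntl (adjusted p = 5.12e-06 and 5.99e-06). Of the clock output list 9 of 20 genes were higher and 1 lower at 9 h than at 24 h. After Dbp, the genes furthest above their 24 h level were Eif4ebp3 (2.33), a translation repressor, Usp2 (2.06), 2010003K11Rik (1.88) and Cidec (1.77). Those furthest below it were Elovl3 (-3.33), Hectd2os (-2.30), the water channel Aqp8 (-2.17), Rnf125 (-2.08) and Rdh11 (-2.07). Such a gap need not be a change at 9 h. Eif4ebp3 was lower at 9 h than at 0 h (log2 fold change -0.69, adjusted p = 0.00654 in limma), at -0.58 without untreated mouse 4. Its means at 0, 9 and 24 h were 13.51, 12.82 and 10.49. Against 0 h, 2010003K11Rik (0.37), Cidec (-1.47), Aqp8 (0.38) and Rdh11 (0.49) were not called at 9 h. At 24 h each was called, at -1.52, -3.24, 2.55 and 2.56.

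Sterol and lipogenic genes were further from 0 h at 24 h than at 9 h. Against untreated 0 h mice 17 sterol genes were higher at 24 h and 16 at 9 h, with medians of 1.99 and 0.97, while 2.31% and 2.03% of all genes were higher, and 11 of the 23 were lower at 9 h than at 24 h. Of 32 lipogenesis genes 20 were higher and 2 lower at 24 h against 0 h, and 15 were lower at 9 h than at 24 h. Of all genes 1.18% were lower and 0.864% higher at 9 h than at 24 h. Sqle was close to its 24 h level at 9 h, with 8.26 ± 0.187, 9.95 ± 0.801, 11.09 ± 0.342, 11.31 ± 0.450 and 11.58 ± 0.117 at 0, 3, 6, 9 and 24 h. Thrsp was not, with 10.21 ± 0.428, 10.48 ± 0.731, 11.59 ± 0.382, 12.31 ± 0.494 and 13.53 ± 0.417. The PPAR-alpha list had 22 of 37 genes lower at 24 h and 11 at 9 h, each against 0 h, when 2.09% and 1.84% of all genes were lower, and 8 were higher at 9 h than at 24 h. Acot1 followed this course, with 12.62 ± 0.476, 12.47 ± 0.134, 11.16 ± 0.372, 10.55 ± 0.354 and 8.88 ± 0.464. The 9 h and 24 h comparisons with 0 h share the same 5 untreated arrays.

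Other genes of the fasted state had their lowest means at different times. Pdk4 averaged 9.19 ± 0.487, 7.56 ± 0.376, 6.63 ± 0.353, 6.52 ± 0.337 and 8.50 ± 0.642 at 0, 3, 6, 9 and 24 h, and its log2 difference of 9 h from 24 h was -1.98 (adjusted p = 0.000245). Igfbp1 had its lowest mean at 3 h, 9.80 ± 1.18, with 10.28 ± 0.487 at 9 h, and its difference from 24 h did not pass (adjusted p = 0.119). The mean of Mt2 was lower at each later time, with 12.84 ± 0.503, 10.21 ± 0.377, 9.41 ± 1.25, 9.15 ± 0.340 and 8.38 ± 0.690, but the difference of 9 h from 24 h did not pass (adjusted p = 0.0763). Of the ER folding genes, Sdf2l1 had its highest mean at 3 h, with 9.59 ± 0.338, 11.65 ± 0.448, 11.46 ± 0.464, 11.37 ± 0.137 and 10.50 ± 0.373 at 0, 3, 6, 9 and 24 h. It was 0.87 higher at 9 h than at 24 h (adjusted p = 0.00137). Of the 28 ER genes, 8 were called higher at 9 h than at 24 h, Sdf2l1 among them, against 0.864% of all genes.

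**Figure D5:**
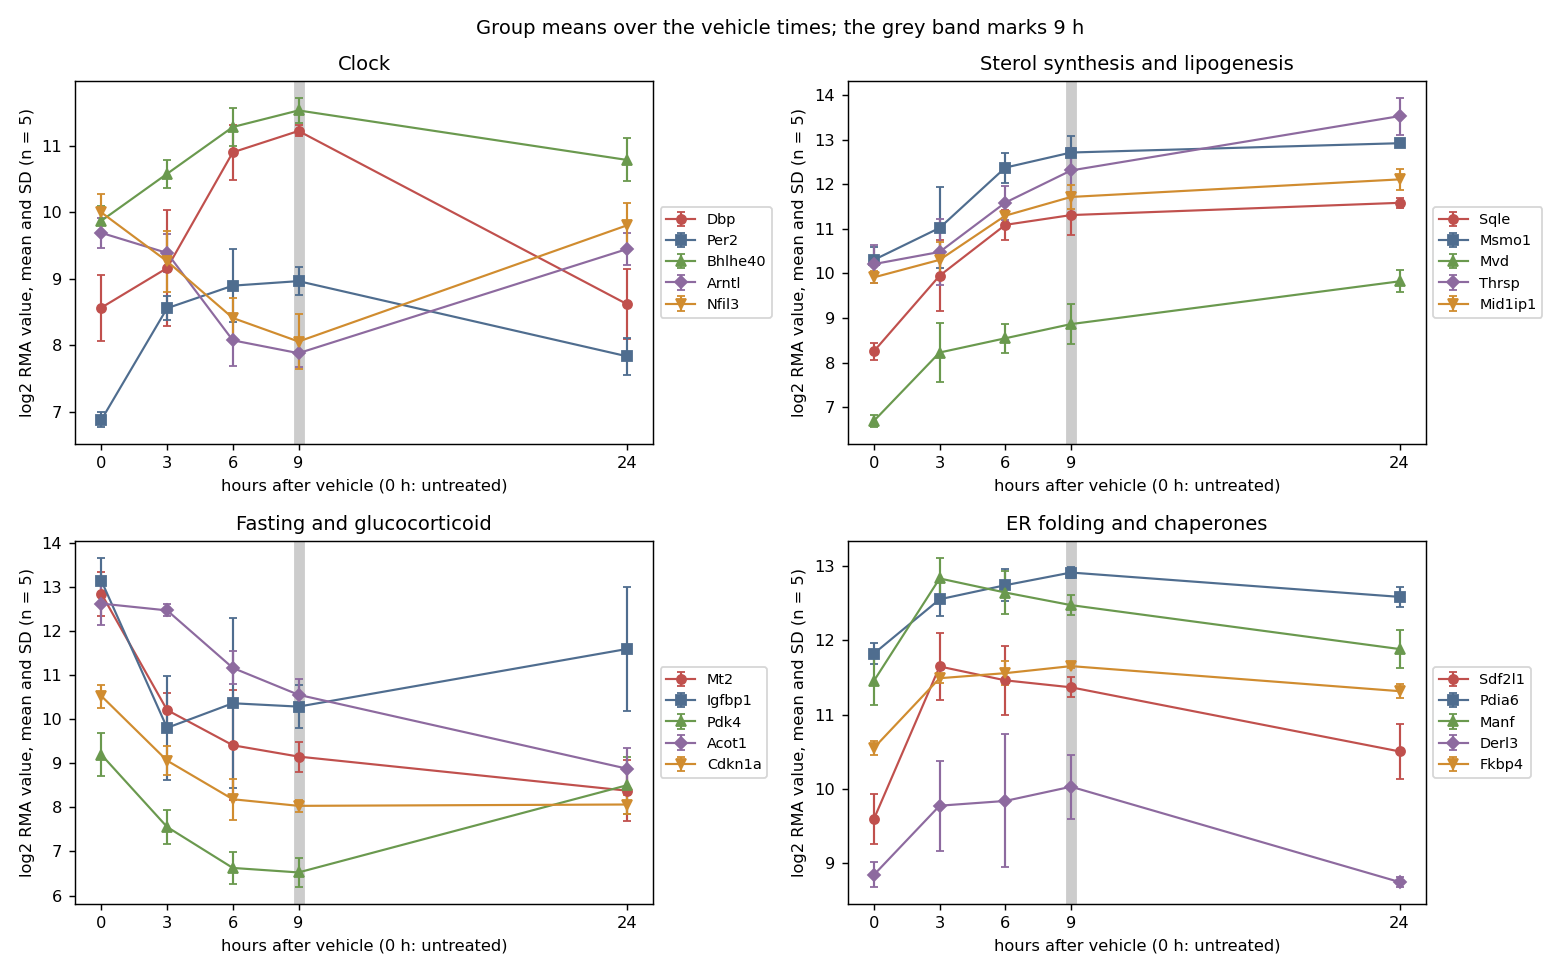
Mean log2 RMA value with SD of 5 mice (vertical axes) against hours after vehicle (horizontal axes, 0 h being untreated mice), for 5 genes in each of 4 panels, with a grey band at 9 h. Clock genes at 24 h are closer to 0 h than at 9 h, sterol and lipogenic genes stay high at 24 h, and Acot1 and Mt2 have their lowest means at 24 h.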

How the data were processed

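Per the labels and the study's methods, the authors hybridised liver RNA of 1 mouse to each Affymetrix Mouse Genome 430 2.0 array and deposited log2 RMA values, made in R 3.6.1 with affy 1.64.0 and the BrainArray CDF version 24. RMA quantile-normalizes all arrays together, so a shift common to all genes is removed. The table held 18180 Entrez genes, 18177 with a symbol in a second deposited table, whose 45 value columns could not be tied to samples and were not used. The methods also name limma 3.42.2 for the study's own tests.

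Each comparison was fitted with limma 3.58.1 (R 4.3.3) on the log2 values of its own 10 arrays, with no covariate or further filter. Genes were called at a Benjamini-Hochberg adjusted p under 0.05 and at least 1.5-fold. Nothing in the labels gives caging or array runs, so p-values measure only the spread between these mice, and the number of arrays limits the precision. Tested on simulated data for vehicle 9 h against untreated 0 h over 18180 genes, the code called 23 of 50 genes changed 1.5-fold, 50 of 50 changed 2-fold and 0 of 17980 unchanged ones. The simulated noise was independent between genes and arrays, unlike the signal on the arrays high in adrenal genes. The test therefore checks the code and does not give the error rate on these arrays. The genes named were the 12 largest called changes without overlap each way, the 5 largest each way against 24 h, and of each list up to 4 called members and the brightest not called. Others were named after their values were seen. The members and lists were chosen with earlier results of these data known. Of 992 list entries in 37 lists 938 were matched. Alternatives left out each mouse or changed the block, the samples fitted, the variance model, the dim-gene filter, the scaling or the threshold. A few genes that meet the rule are not reported here.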

Additional observations from a re-analysis of the deposited data

Results flagged for a closer look

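In 14 of 298 sets of 5 mice, 1 mouse stood apart from the other 4 further than the 95% critical value of Dixon's test allows, where chance gives about 1 in 20. With its log2 value and that of the nearest mouse, this was the case among vehicle 9 h mice for Stip1 in mouse 4 (10.15, nearest 10.24), Cth in mouse 2 (13.12, nearest 13.54), Slc7a2 in mouse 2 (10.41, nearest 10.93), Abcb4 in mouse 1 (12.78, nearest 12.44), Ifit1 in mouse 3 (9.82, nearest 9.09) and Fcgr2b in mouse 2 (10.78, nearest 10.63). Among untreated 0 h mice it was so for Fbp1 in mouse 2 (14.28, nearest 14.25), Thrsp in mouse 5 (10.95, nearest 10.14), Cth in mouse 1 (13.61, nearest 13.75), Gadd45g in mouse 1 (9.01, nearest 9.72), Cyp2c70 in mouse 4 (11.54, nearest 12.10), Saa2 in mouse 4 (7.80, nearest 7.39), Hpx in mouse 2 (14.63, nearest 14.55) and Rsad2 in mouse 2 (9.54, nearest 8.92).

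Vehicle 9 h and vehicle 24 h livers differed for 371 genes, 49 of them given here, by limma with the calls used throughout. As log2 differences of 9 h minus 24 h, higher at 9 h were Dbp (2.60), Eif4ebp3 (2.33), Usp2 (2.06), 2010003K11Rik (1.88), Cidec (1.77), Acot1 (1.68), Derl3 (1.29), Ciart (1.21), Alas1 (1.14), Per2 (1.13), Tfrc (1.10), Noct (1.04), Fam47e (1.02), Gss (0.95), Sdf2l1 (0.87), Angptl4 (0.79), Gadd45a (0.75), Bhlhe40 (0.74), Dnaja1 (0.71), Lyve1 (0.71), Abcb1a (0.65), Ccne2 (0.62), Fgf1 (0.61), Ifit1 (0.60), Stip1 (0.59) and Manf (0.59). Lower at 9 h were Elovl3 (-3.33), Hectd2os (-2.30), Aqp8 (-2.17), Rnf125 (-2.08), Rdh11 (-2.07), Pdk4 (-1.98), Nfil3 (-1.75), Arntl (-1.56), Depp1 (-1.48), Thrsp (-1.22), Hsd17b6 (-1.15), Cyp2c55 (-1.12), G6pc (-1.09), Clpx (-0.97), Mvd (-0.96), Lpcat3 (-0.86), Lipc (-0.85), Lss (-0.79), Ccng2 (-0.77), Cyp2c70 (-0.77), Hsd3b5 (-0.62), Wipi1 (-0.62) and Cyp2c37 (-0.62).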

How the results depend on the processing

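Of the 704 genes called between vehicle 9 h and untreated 0 h, all kept their sign under every alternative run, and the count stayed within 1.5 times of 704 except under 2 thresholds: 156 genes differed by more than 1.5-fold in a test against that change (treat, 75 higher and 81 lower), and 4275 passed the adjusted p with no minimum change. Leaving out each mouse gave 698 to 750. A replicate block, the model over all 45 arrays, the trend and robust options, the dim-gene filter and the thresholds leave each log2 fold change as it was. Under those the sign could not change. Against 24 h, 371 genes became 48 under treat and 3423 with no minimum change, of which 1896 were higher and 1527 lower, in place of 157 and 214. Leaving out each mouse gave 350 to 386. Against 3 h, 254 became 6 under treat and 2031 with no minimum change (845 higher and 1186 lower, in place of 130 and 124). Leaving out each mouse gave 225 to 274. Against 6 h, the 4 called genes were 2 to 5 when mice were left out, 0 under treat and with a replicate block, 1 in the model over all 45 arrays, 2 at an adjusted p under 0.01 and 21 with no minimum change. Replicate numbers did not pair the mice, as same-numbered deviations correlated at -0.111 to 0.170, and the block left 704 genes called, 702 of them also called without it, and changed no call of a named gene. Of 110 named genes called, 95 were called in each of the 18 alternatives that tested them and 15 were not. These 18 do not include treat or the other changes of threshold. Mcm6 and Ccne2 were left out by the filter on dim genes and so had 17. In the model over all 45 arrays Asns (adjusted p = 0.0925), Gadd45a (0.0963), Gadd45g (0.0595), Hsd17b6 (0.0986), Lcn2 (0.0914), Lyve1 (0.105), Marco (0.352) and Saa2 (0.314) did not pass and Cidec did (0.0154), and the cause was not tested. With the trend and robust options Ifit1 (0.057), Lcn2 (0.0712) and Marco (0.0819) did not pass, and Col3a1 (log2 fold change 0.54) and Slc16a10 (-0.54) did not reach 1.5-fold with array weights, nor Slc16a10 (-0.58) after re-centring. Re-centring moved the median of all genes to -0.01 and gave 388 higher and 321 lower.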

Other observations

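Untreated 0 h mice differed among themselves in fasting genes. Untreated mice 1 and 4, chosen after their values were seen, had the highest log2 values of their group in Acot1 (13.21 and 13.06, against 12.22 to 12.36 in the other 3), Fgf21 (10.92 and 10.03, against 8.61 to 9.05) and Cidec (10.75 and 10.67). They had the lowest in Rbm3 (6.81 and 6.80, against 7.56 to 7.82). In Acot1, Fgf21 and Rbm3 all 5 untreated mice stood on the same side of all 5 vehicle 9 h mice.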
